A study of Mus musculus with 143 samples.

Results

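The genes described are 36 that serve protein folding in the endoplasmic reticulum (ER) and the unfolded protein response. They were taken by name from a given list, and all 36 were found among the 23337 gene rows of the count table. They were sorted by role into lumenal chaperones and their partners (10 genes), oxidoreductases (6), stress sensors with their transcription factors and feedback genes (8), degradation genes (7) and translocation genes (5). The cells were single microglia from the cerebellum of wild-type male C57BL/6N mice at postnatal day 7. They were sorted in the gate CD45low CD11b+ Gpnmb+ Clec7a+ and sequenced with Smart-seq2, a plate-based method that reads full-length transcripts without molecular identifiers. The 143 cells sat on 2 plates, 95 on plate 1 and 48 on plate 2. Every cell shared genotype, strain, age, tissue and gate, and the animals were pooled, so the cells are 1 sample of 1 group. No comparison between groups is possible, no p-value is given, and everything below describes how the cells of this pool varied.

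The ER lumen is where secreted, lysosomal and membrane proteins fold. Proteins enter through the Sec61 channel, are held by chaperones such as BiP (the product of Hspa5), form disulfide bonds with the help of protein disulfide isomerases, and are sent back to the cytosol for degradation if they fail to fold. When unfolded proteins build up, the membrane sensors IRE1 (Ern1), PERK (Eif2ak3) and ATF6 are released from BiP and turn on chaperone, oxidoreductase and degradation genes through the factors XBP1, ATF4 and cleaved ATF6. Prolonged signalling through PERK raises CHOP (Ddit3) and its targets. The lysosomal and secreted proteins that microglia make pass through this machinery, and the load on it was not measured here.

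Gene counts per cell ran from 259613 to 1178529 with a median of 727276, and the number of genes read per cell from 1552 to 4955. Levels are given as CPM, counts per 1000000 gene counts of a cell, and a gene counts as read in a cell with at least 1 count. The microglial label was checked against its markers: of 10 microglial genes, 8 were read in 90% of cells or more, and Csf1r, C1qa and C1qb in 100%. Of the 10, 9 were read in 50% of cells or more, and the least read was in 25.9%. Of the gate genes, Gpnmb was read in 98.6% and Clec7a in 83.2% of cells. The plasma and B cell markers Cd79a, Ms4a1 and Pax5 and the border-associated macrophage markers Cd163, Lyve1 and Cd209f were at 0 in all 143 cells, while Cd79b was read in 37.1%. The other border-associated macrophage markers were read: Stab1 in 87.4% of cells at a pooled 324 CPM, Mrc1 in 55.9%, Ms4a7 in 20.98% and Pf4 in 16.1%. Of 7 oligodendrocyte lineage markers, the most read was in 35.7% of cells, and the median share was 10.5%. Each cell was sorted into its own well, and no doublet caller was run.

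The ER stress response element (ERSE) is the sequence that cleaved ATF6, with the factor NF-Y, is known to bind. It consists of CCAAT, then 9 bases of any kind, then CCACG. Promoter windows from RefSeq on GRCm38.p6, from 250 bases before to 50 bases after a gene's start, were available for 30 of the 36 genes. The element was searched on both strands, and 8 of the 30 windows (26.7%) held it, beside 37 of the 27025 genes with a window (0.137%) and 10 of the 5893 tested genes with one (0.170%). The 8, which are counted within the 37 and within the 10 as well, were Hspa5, Hsp90b1, Calr, Canx, Dnajc3, Pdia6, Creld2 and Syvn1. They are 5 of the 8 chaperone genes with a window, 2 of the 6 oxidoreductase genes and 1 of the 6 degradation genes, with 0 of 7 among the sensors and factors and 0 of 3 among the translocation genes. The full stretch before the start is shown for Creld2, which had the highest ratio of the tested members in cells with high Hspa5, and for Hsp90b1 and Pdia6, whose levels followed that of Hspa5 closely. In these 3 stretches only bases before both the RefSeq start and the GENCODE gene start are printed, each is written from 5′ to 3′ on the gene's own strand, and capitals mark the fixed letters of the element on either strand. The Creld2 stretch is chr15:88819396-88819645 (plus strand), the Hsp90b1 stretch chr10:86705510-86705694 (minus strand) and the Pdia6 stretch chr12:17266339-17266544 (plus strand).
Creld2: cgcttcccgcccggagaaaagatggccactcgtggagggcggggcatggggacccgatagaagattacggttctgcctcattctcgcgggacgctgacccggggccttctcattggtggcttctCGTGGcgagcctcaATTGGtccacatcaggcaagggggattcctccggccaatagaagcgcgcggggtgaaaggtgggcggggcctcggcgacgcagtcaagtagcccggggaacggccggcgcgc
Hsp90b1: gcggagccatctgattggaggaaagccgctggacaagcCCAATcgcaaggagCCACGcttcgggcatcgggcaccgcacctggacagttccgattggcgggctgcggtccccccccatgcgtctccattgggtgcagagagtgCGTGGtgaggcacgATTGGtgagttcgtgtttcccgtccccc
Pdia6: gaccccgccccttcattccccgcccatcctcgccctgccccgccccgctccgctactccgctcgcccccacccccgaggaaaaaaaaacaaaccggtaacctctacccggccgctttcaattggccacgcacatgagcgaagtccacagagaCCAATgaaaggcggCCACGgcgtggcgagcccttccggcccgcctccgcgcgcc

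Hsp90b1 held the element at 2 places, 1 on each strand, at positions -212 to -194 and -107 to -89 relative to its start. For the other 5 genes with a match the 19 matched bases are shown with 5 bases on each side, at chr2:34772020-34772048 for Hspa5, chr8:84847070-84847098 for Calr (minus strand), chr11:50325795-50325823 for Canx (minus strand), chr14:118937822-118937850 for Dnajc3 and chr19:6046527-6046555 for Syvn1. The Hspa5 match lies before the RefSeq start but after the GENCODE gene start at position 34771970. The 5 stretches show that the 9 bases between the fixed letters differ from gene to gene.
Hspa5: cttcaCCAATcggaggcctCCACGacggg
Calr: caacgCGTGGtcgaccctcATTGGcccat
Canx: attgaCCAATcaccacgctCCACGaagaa
Dnajc3: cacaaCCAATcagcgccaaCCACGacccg
Syvn1: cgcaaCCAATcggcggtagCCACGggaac

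A second form, ERSE-II, consists of ATTGG, 1 base of any kind and CCACG, and was found in 2 of the 30 windows, against 0.0444% of all genes with a window. The matches are at chr16:22857847-22857867 in Dnajb11, 7 to 17 bases after the start, and at chr8:94386372-94386392 in Herpud1, 52 to 42 bases before it. Here capitals mark the whole match.
Dnajb11: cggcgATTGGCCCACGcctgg
Herpud1: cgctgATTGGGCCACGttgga

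The letters TGACGTGG, the core of the element that XBP1 binds, were in 0 of the 30 windows and in 0.714% of all genes with a window. The letters TGATGNAAT, a form of the element that ATF4 and C/EBP factors bind, were likewise in 0 of the 30 and in 1.08% of all. A match is only a match of letters in this window. Hyou1, Manf, Atf6, Derl1, Sec61a1 and Ssr2 had no window in the table used.

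Of the 16 chaperone and oxidoreductase genes, 8 were read in 90% of cells or more, and of the 8 sensors, factors and feedback genes 0 were. Together the 36 genes took 1.29% of all gene counts. Of them, 12 were read in 90% of cells or more, where this held for 7.54% of the 7215 genes that passed the filter (a read in 10% of cells or more and a pooled CPM of 10 or more). Pooled CPM is the gene's counts over all 143 cells per 1000000 gene counts. A cell held reads of 10 to 33 of the 36 genes, with a median of 23. The median share of cells with a read was 81.1% for the chaperone genes, 82.5% for the oxidoreductases, 87.4% for the translocation genes, 69.9% for the degradation genes and 12.2% for the sensors, factors and feedback genes.

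**Figure D1:**
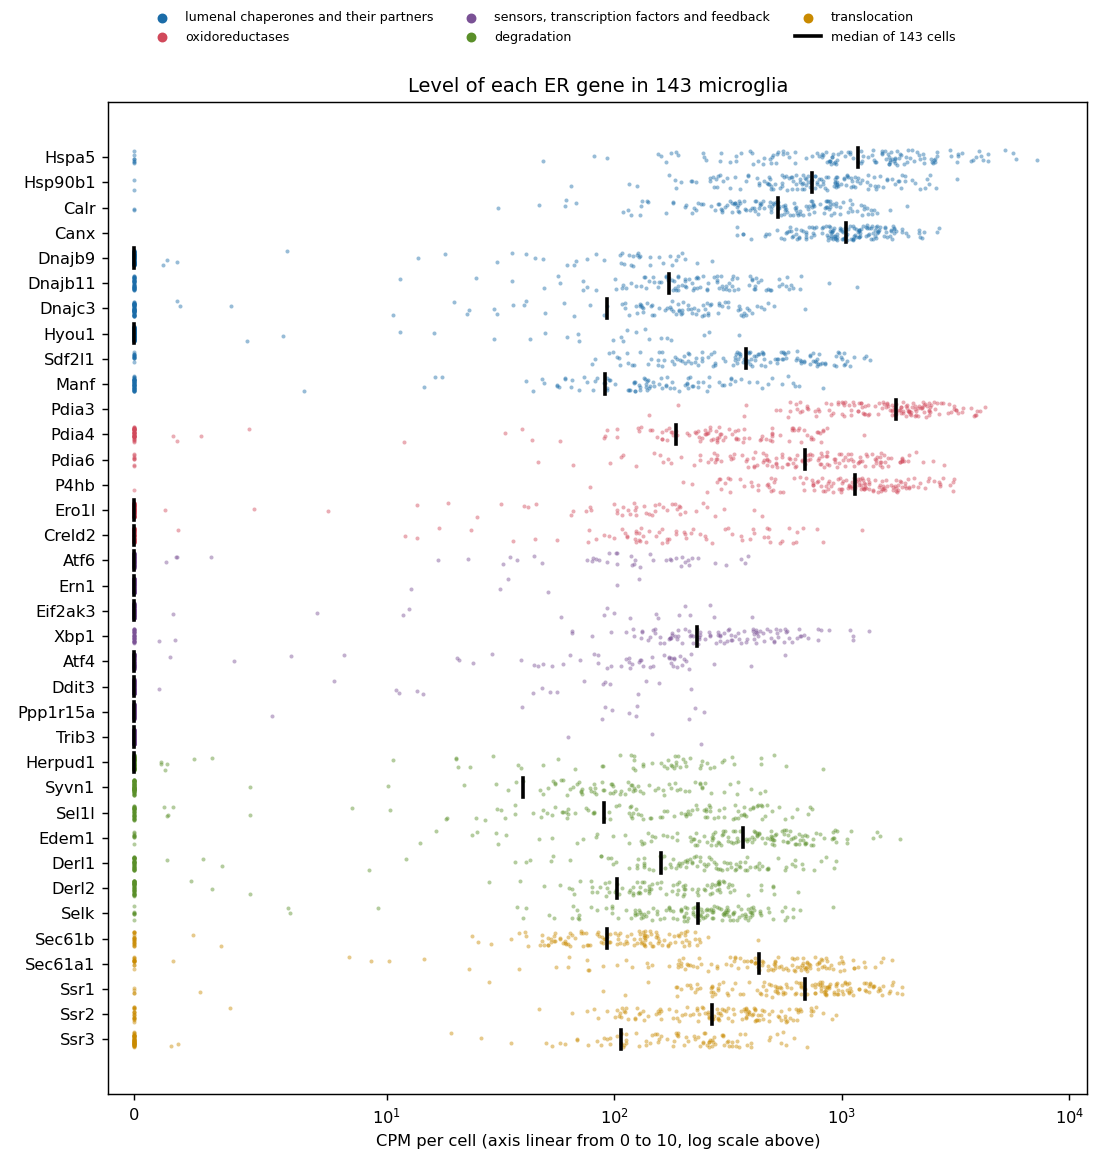
Level of each of the 36 genes in each of the 143 cells. Each point is 1 cell, the horizontal axis is CPM (linear from 0 to 10, log scale above), colours mark the role and black bars the median over cells. Pdia3 and Canx have no cell at 0, whereas the medians of Ern1, Eif2ak3, Ddit3, Ppp1r15a and Trib3 are 0.

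Hspa5, which encodes the ER Hsp70 chaperone BiP, was read in 95.1% of cells (exact 95% interval 90.2 to 98.0). All such intervals cover counting error only. Its level ran from 0 to 7198 CPM with a median of 1176 and quartiles of 516 and 1947 CPM. The lectin chaperones of the glycoprotein folding cycle differed in evenness. Canx, calnexin, was read in all 143 cells, from 346 to 2679.7 CPM with a median of 1041 CPM. Calr, calreticulin, was read in 98.6% of cells with a median of 525 CPM and a highest value of 1931 CPM. Hsp90b1, the ER Hsp90 also called Grp94, was read in 98.6% of cells with a median of 743 and a highest value of 3222 CPM.

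The partners of BiP were more thinly read. Sdf2l1, which binds the J-domain protein Dnajb11 in the lumen, had a median of 379 CPM and was read in 90.9% of cells. The J-domain co-chaperones Dnajb11, Dnajc3 and Dnajb9 were read in 71.3%, 62.2% and 28.7% of cells. Manf, an ER protein that binds BiP and can be secreted as a trophic factor, was read in 65.7% of cells with a median of 90.9 CPM. Hyou1, a nucleotide exchange factor for BiP, was read in only 23 cells (16.1%), and 47.2% of its counts lay in 5 cells.

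Among the oxidoreductases, Pdia3, the isomerase that works with calnexin and calreticulin, had the highest pooled level of the 36 genes, at 1798 CPM. It was read in all 143 cells, from 143 to 4269.7 CPM with a median of 1732 CPM. P4hb, the classical protein disulfide isomerase, was read in 99.3% of cells with a median of 1139 CPM, and Pdia6 in 94.4% with a median of 692 CPM. Pdia4 was read in 70.6% of cells, and Creld2, an ER protein with isomerase activity, in 48.95%. Ero1l, the oxidase that recharges the isomerases, was read in 34.3% of cells with a pooled level of 47.02 CPM.

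Pooled levels were also divided by the merged length of all annotated exons of a gene. The lengths of the transcripts present in the cells were not determined, so comparisons between genes are approximate. The order was led by Pdia3 at 573 CPM per kb, P4hb at 429.5, Sdf2l1 at 402 and Hspa5 at 365 CPM per kb. The short gene Sdf2l1 thus stood above Hsp90b1 (222 CPM per kb) on this scale, although its pooled level of 445 CPM was lower than the 896 CPM of Hsp90b1. The median of the tested genes with a length was 9.29 CPM per kb. Exons of Hsp90b1 share 632 of 4032 bases with other annotated genes, those of Sec61a1 549 of 6732 and those of Eif2ak3 485 of 6026. The strand setting of the counting is not known from the labels, so reads from these stretches cannot be assigned with certainty.

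The sensors themselves were sparse. Atf6 was read in 44 cells (30.8%), Eif2ak3 in 17 (11.9%, 7.08 to 18.4) and Ern1 in 6 (4.2%, 1.56 to 8.91). Xbp1, whose messenger RNA IRE1 splices, was the broadly read factor, in 76.2% of cells with a median of 232 and a highest value of 1314 CPM. Gene counts do not separate its spliced from its unspliced form. Atf4, which is regulated mainly through its translation, was read in 52 cells (36.4%).

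Reads of the late PERK branch were rare. Ddit3, which encodes CHOP, was read in 18 cells (12.6%), Ppp1r15a, the phosphatase subunit that reverses the PERK signal, in 11 (7.69%), and Trib3, a pseudokinase induced by ATF4 and CHOP, in 3 (2.098%). At least 1 of these 3 genes was read in 27 cells (18.9%), at least 2 in 4 cells and all 3 in 1 cell. Cells with a Ddit3 read had a median of 704230 gene counts and cells without one 733186.

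The degradation genes were uneven. Selk, a selenoprotein of the ER membrane now named Selenok, was read in 95.1% of cells and Edem1, a lectin-like protein that hands misfolded glycoproteins on, in 93.7% with a median of 369.5 CPM. Sel1l and Syvn1, adaptor and ubiquitin ligase of the main degradation complex, were read in 74.1% and 54.5% of cells. The derlins Derl1 and Derl2, membrane proteins of the exit channel, were read in 69.9% and 66.4%, and Herpud1, which helps assemble the complex, in 41.3%. The 5 translocation genes were read in most cells: Ssr1, Ssr2 and Ssr3, subunits of the translocon-associated complex, in 97.2%, 87.4% and 64.3%, and the channel subunits Sec61a1 and Sec61b in 90.2% and 86.01%.

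Hspa5 varied between cells more than most genes of its level. Excess variability is the log2 ratio of the squared coefficient of variation of CPM to its running median over neighbouring genes in order of mean level, so that 0 is the usual spread at a given level. For Hspa5 it was 1.58, rank 18 of 7215 genes, with 1.55 on plate 1 alone and 1.73 on plate 2 alone. Of the 32 members that passed the filter, 19 had a value above 0, where 49.7% of all genes did, and Hspa5 was the single one at 1 or more, where 1.58% of all genes were. Next came Creld2 at 0.86, Pdia6 at 0.81, Hsp90b1 at 0.62 and Pdia4 at 0.52. At the even end stood Sec61b at -1.75, Selk at -0.93 and Canx at -0.72. Hspa5 and Canx thus had close medians and opposite spreads. The 4 members that did not pass the filter were Ern1, Ddit3, Ppp1r15a and Trib3.

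**Figure D2:**
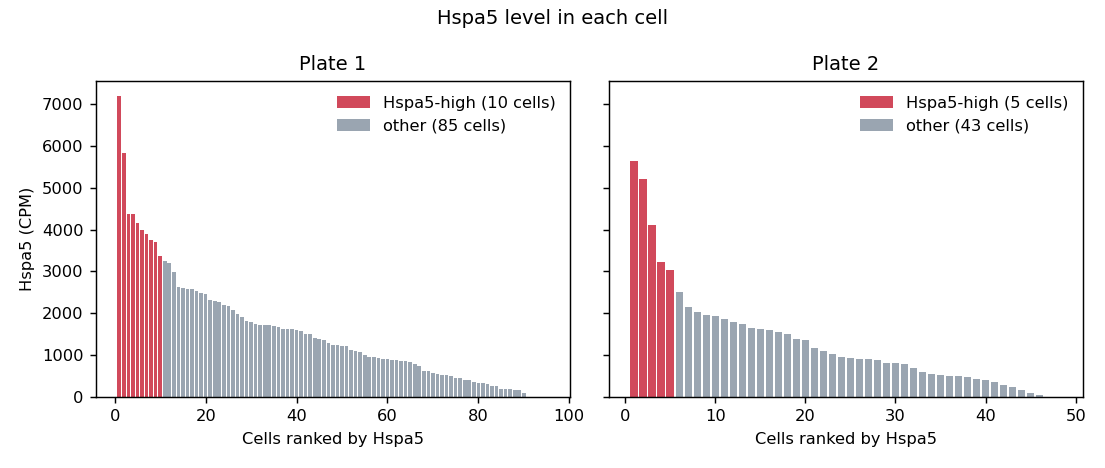
Hspa5 level (CPM) in each cell, ranked within plate 1 (95 cells) and plate 2 (48 cells), 1 bar per cell. The red bars are the upper 10% of each plate, 10 and 5 cells, and the levels fall without a gap at the boundary on plate 1, from 3363 to 3249 CPM.

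Cells with high Hspa5 were taken as the upper 10% of each plate by Hspa5 CPM, 15 cells in all. This is a range of a continuous level and not a cell type. On plate 1 the lowest cell inside had 3363 and the highest outside 3249 CPM, with 7 cells within 20% of the boundary. On plate 2 these values were 3024 and 2518 CPM, with 3 cells within 20%. Hspa5 itself had a median of 4103 CPM inside (3024 to 7198) and 956 CPM outside (0 to 3249), which the choice fixes. At the other end, 7 cells had no Hspa5 read, 5 on plate 1 and 2 on plate 2. These 7 cells had 591483 to 844111 gene counts. They held reads of 10 to 22 of the 36 genes, with a median of 15 against 23 in the other cells. Fewer genes of any kind were read in them as well, 2297 to 3378 with a median of 2582, where the median over all cells was 3255. Whether the lower number of members went beyond this was not tested.

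Of the 31 members tested besides Hspa5, 28 had a higher pooled level in the Hspa5-high cells, all but Ero1l, Eif2ak3 and Derl1. At least 2-fold higher were 12 of the 31, where 8.07% of 7214 genes did. Of these 12, 11 were higher on each plate as well, where 5.6% of all genes were at least 2-fold higher and higher on each plate. At least 2-fold lower was 1 member, where 16.2% of all genes were. Without a fold limit, 25 members were higher on each plate (22.7% of all genes) and 2 lower on each plate (31.6% of all genes). The median log2 ratio of pooled CPM + 1 was 0.70 over the 31 members and -0.01 over all genes. By role the median was 0.93 for the chaperone genes (9 tested, 4 at least 2-fold higher), 0.90 for the oxidoreductases (6, 3), 0.83 for the sensors and factors (4, 2), 0.50 for the degradation genes (7, 2) and 0.44 for the translocation genes (5, 1). For the 4 sensors and factors the plates had medians of opposite sign, 1.23 and -1.02.

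**Figure D3:**
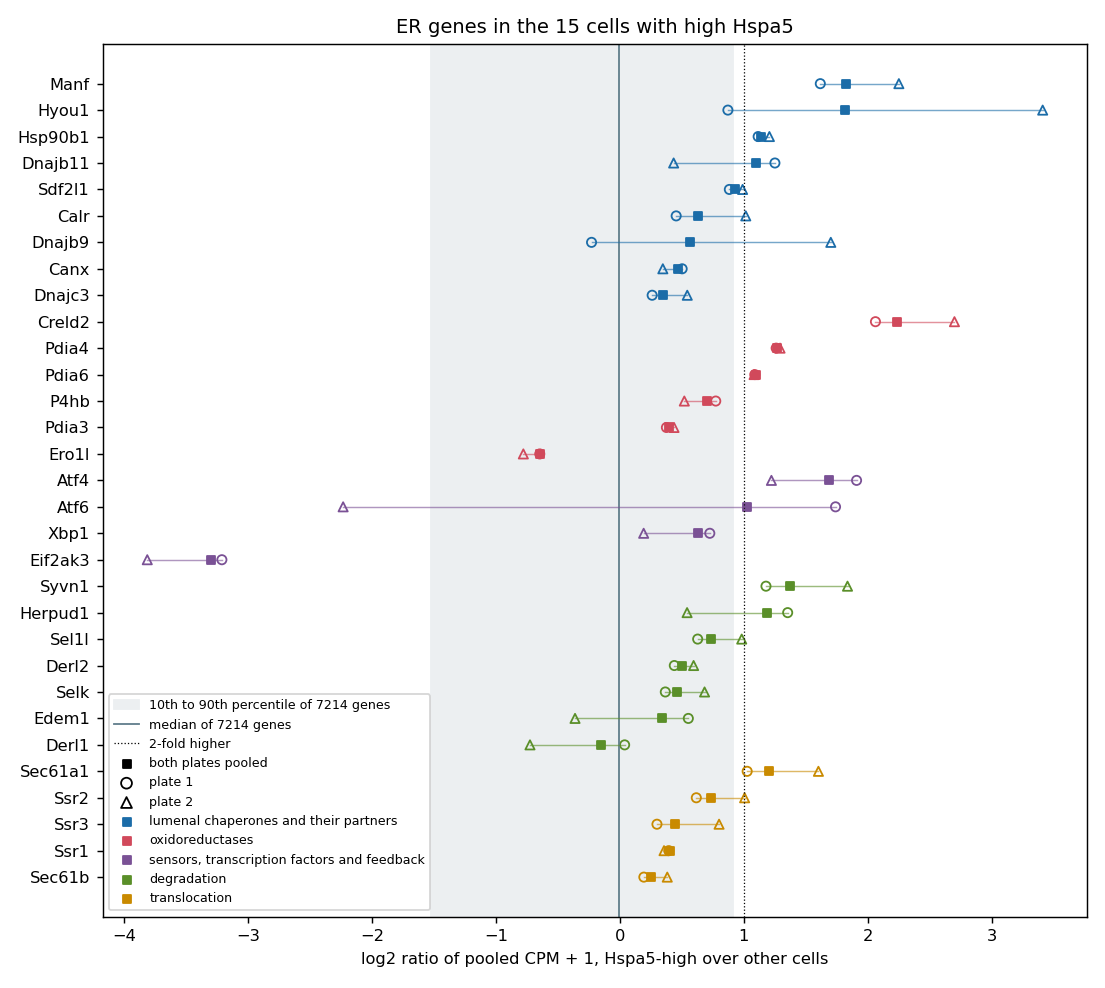
Log2 ratio of pooled CPM + 1 between the 15 Hspa5-high and the other cells for the 31 tested members besides Hspa5, by role. Squares pool both plates, circles are plate 1 and triangles plate 2, the grey band spans the 10th to 90th percentile of 7214 genes and the dotted line marks 2-fold. Manf, Creld2, Pdia4, Pdia6, Hsp90b1, Atf4, Syvn1 and Sec61a1 lie at or beyond 2-fold on both plates, while Atf6 lies on opposite sides of 0.

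Creld2 had the highest log2 ratio of the 31 members. It was read in 12 of the 15 Hspa5-high cells (80%, 51.9 to 95.7), with a median of 468 CPM and a highest value of 1224 CPM, and in 58 of the others (45.3%, 36.5 to 54.3), with a median of 0 and a highest value of 585 CPM. Its pooled log2 ratio was 2.24, with 2.06 on plate 1 and 2.70 on plate 2. The ranges overlapped, since 3 Hspa5-high cells had no Creld2 read.

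Manf was read in 14 of the 15 cells, from 0 to 827 CPM with a median of 262 CPM, against a median of 71.9 and a highest value of 495 CPM in the others. Its log2 ratio was 1.82 (1.62 and 2.25 on the plates), and 14 of the 15 cells lay above the upper quartile of the others. Hyou1 also stood at a log2 ratio of 1.82, but this rests on few cells: it was read in 6 of 15 (40.0%, 16.3 to 67.7) and in 17 of the others (13.3%, 7.93 to 20.4), and its ratio was 0.87 on plate 1 and 3.41 on plate 2.

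The other chaperone genes had lower ratios. Hsp90b1 ran from 681 to 3222 CPM in the Hspa5-high cells with a median of 1841, and from 0 to 2582 CPM with a median of 694 in the others. Its log2 ratio of 1.14 was nearly the same on the plates (1.12 and 1.21), and 14 of the 15 cells were above the median of the others. Dnajb11, read in 15 of 15 cells against 67.97% of the others, had a ratio of 1.098 (1.25 and 0.43). Sdf2l1 had 0.93, Calr 0.63, Canx 0.47 and Dnajc3 0.35, each higher on both plates, and Dnajb9 had 0.57 with opposite signs on the plates.

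Pdia4 and Pdia6 were read in all 15 Hspa5-high cells. Pdia6 ran from 267 to 2275 CPM there with a median of 1641, against a median of 618 and a highest value of 2819 CPM in the others, so the highest Pdia6 cell was not an Hspa5-high one. The log2 ratios were 1.27 for Pdia4 and 1.101 for Pdia6, with values of 1.26 and 1.29 and of 1.09 and 1.08 on the plates. P4hb had a ratio of 0.70 and Pdia3 of 0.40. Ero1l went the other way, read in 4 of 15 cells against 45 of the others (35.2%), with a ratio of -0.64 and lower on both plates.

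The values of the stress branches rest on few cells. Atf4 was read in 8 of 15 Hspa5-high cells (53.3%, 26.6 to 78.7) and in 44 of the others (34.4%, 26.2 to 43.3), and its pooled log2 ratio was 1.69, with 1.91 and 1.22 on the plates. Atf6 was read in 8 of 15 against 36 of the others (28.1%), with a ratio of 1.03 that was 1.74 on plate 1 and -2.23 on plate 2. Xbp1 had medians of 235 and 222 CPM over both plates and a pooled ratio of 0.63, with 0.73 and 0.19 on the plates. On plate 1 alone its medians were 450 CPM in the 10 Hspa5-high cells and 236 CPM in the 85 others. Eif2ak3 was the member at least 2-fold lower, with a log2 ratio of -3.30 (-3.21 and -3.81 on the plates), the farthest from 0 of the 31. It was read in 1 of 15 cells (6.67%, 0.169 to 31.9) and 16 of the others (12.5%, 7.32 to 19.5), intervals that overlap.

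Of the untested late genes, Ddit3 was read in 3 of 15 cells (20.0%, 4.33 to 48.1) and 15 of the others (11.7%, 6.71 to 18.6). Trib3 was read in 2 of 15 (13.3%, 1.66 to 40.5) and 1 of the others (0.781%, 0.0198 to 4.28), and Ppp1r15a in 2 of 15 and 9 of the others (7.03%, 3.27 to 12.9). At least 1 of the 3 was read in 5 of the 15 cells, beside 27 of all 143 cells (18.9%). Ern1 was read in 0 of 15 cells, an exact interval that ends at 21.8%, and in 6 of the others. Differences in these sparse genes were not tested, and with 15 cells the intervals are wide and overlap.

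Among the degradation genes Syvn1 was read in 12 of 15 Hspa5-high cells (median 97.9 CPM) and 66 of the others (median 16 CPM), with a log2 ratio of 1.37, higher on both plates. Herpud1 had a ratio of 1.19 with like shares of cells, 6 of 15 (40.0%) against 53 of the others (41.4%), so its ratio rests on a few high cells, the highest at 823 CPM. Sel1l had 0.73, Derl2 0.50 and Selk 0.46. Edem1 had 0.34 and Derl1 -0.15, with opposite signs on the plates for both (0.55 and -0.36 for Edem1, 0.04 and -0.73 for Derl1). Sec61a1, the pore of the translocation channel, ran from 444 to 1663 CPM with a median of 879.9 in the Hspa5-high cells and from 0 to 1249 CPM with a median of 390.2 in the others. All 15 cells lay above the median of the others, and its ratio was 1.20 (1.03 and 1.60). Ssr2 had 0.73, Ssr3 0.44, Ssr1 0.41 and Sec61b 0.25, each higher on both plates.

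Most Hspa5-high cells were high for many members at once. For the 23 other members with a read in 50% of cells or more, the number above that member's upper quartile was counted in each cell. It ran from 5 to 18 with a median of 13 in the Hspa5-high cells and from 0 to 18 with a median of 5 in the others. A majority of the 23 was reached in 11 of 15 cells inside and in 10 cells outside, so a few cells below the Hspa5 boundary also carried the broad pattern. The same count was not made for genes outside the members. Whether it goes beyond a general shift of these cells was not tested. Of the 15 cells, 8 were also in the upper 10% of their plate for Hsp90b1, 8 for Sdf2l1, and 7 each for Pdia4, Pdia6 and Ssr2, where the median gene shared 1 cell and the highest gene outside the members shared 8. Over the 23 members this number ran from 2, for Derl1, Derl2 and Ssr1, to 8.

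Other measures of the cells moved with the same split, and their part in the differences was not tested. Median gene counts were 812093 in the Hspa5-high cells and 716520 in the others, gene counts per spike-in count 26.9 and 24.7, and the share of the ribosomal RNA precursor Rn45s 7.76% and 9.38%. The summed level of the 7 border-associated macrophage markers was 0 to 1219 CPM with a median of 20.9 in the Hspa5-high cells and 0 to 3381 CPM with a median of 439 in the others. Summed microglial markers were lower there too, with medians of 23042 and 26024 CPM. Of these 10 markers, 0 were higher and 4 lower on each plate, where 22.7% and 31.6% of all genes were. Summed immediate early genes, which respond to dissociation, had medians of 490.5 and 399 CPM. Summed proteasome subunits had medians of 7119.6 and 5579 CPM, and their rho with Hspa5 was 0.51 on plate 1 and 0.38 on plate 2. For 20 secreted and lysosomal cargo genes, Lpl and Apoe among them, the summed level had medians of 157849 and 187715 CPM. The rho of this sum with Hspa5 was -0.40 on plate 1 and -0.15 on plate 2. Spp1 and Apoe had the highest medians of the 20, 46105 and 32508 CPM, and so weigh most in the sum. Taken singly, the 20 had rho from -0.57 (Apoe) to 0.52 (Lpl), with a median of -0.08. Of them 4 reached 0.3, where 4.23% of all genes did. The median log2 ratio of the 20 was -0.11. Of them 0 passed 2-fold, where 8.07% of all genes were at least 2-fold higher and 16.2% lower. After every cell was thinned to 259613 gene counts, the median log2 ratio of the members was 0.74. Cells classed as cycling from 24 S-phase and 31 G2/M genes made up 7 of 15 (46.7%, 21.3 to 73.4) and 58 of the others (45.3%, 36.5 to 54.3).

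Over all cells, the level of Hspa5 went along with those of most chaperones, isomerases and translocation genes, and less with those of degradation genes. Spearman's rho with Hspa5 was computed on CPM within each plate and averaged by cell number, over 143 cells that share a pool, plates and the CPM scale, for the 2196 genes with a read in 50% of cells or more. These values describe the cells and carry no test. Of the 23 members, 14 reached 0.3, where 4.23% of all genes did. The median was 0.40 over the members and 0.05 over all genes. The highest rho of the 2196 genes was that of Pdia6, at 0.60, followed by Manf at 0.56. Hsp90b1 (0.51), Sec61a1 (0.50) and Pdia3 (0.48) took ranks 4 to 6.

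**Figure D4:**
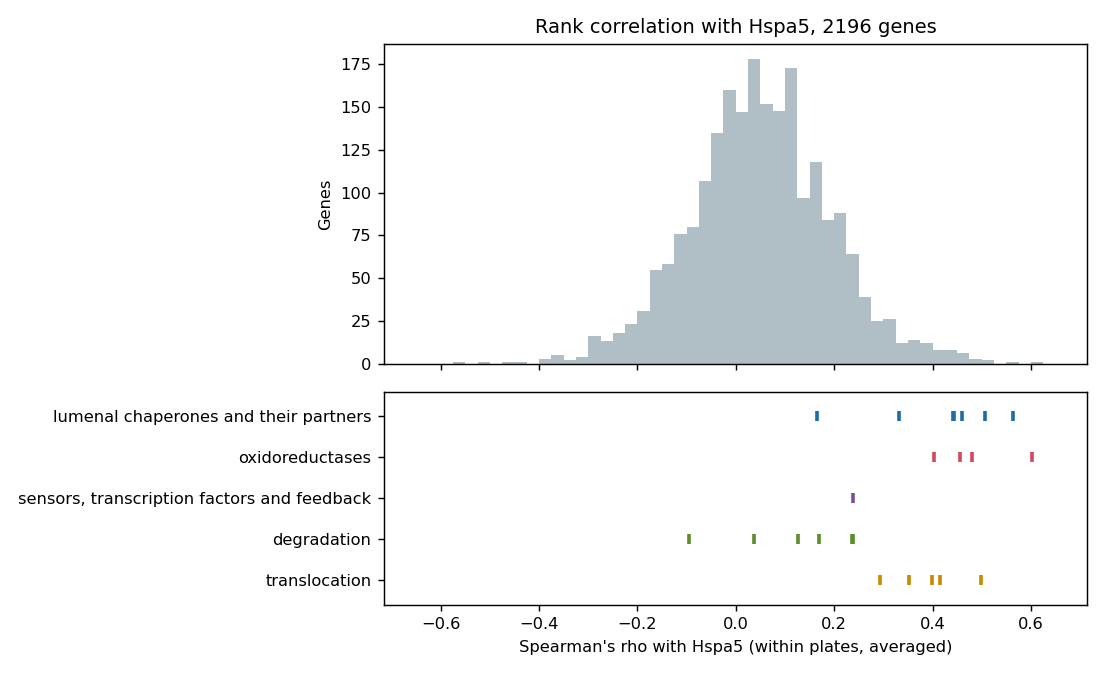
Spearman's rho with Hspa5 over the 143 cells, within plates and averaged. The upper panel counts 2196 genes per bin of rho, and the lower panel marks each of the 23 members by role: chaperones and oxidoreductases reach 0.56 and 0.60, and the 6 degradation genes lie between -0.10 and 0.24.

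The roles ranked differently. The 4 oxidoreductases ran from 0.40 (P4hb) to 0.60, and the 7 chaperone genes from 0.16 (Dnajc3) to 0.56, with Canx at 0.33. The 5 translocation genes ran from 0.29 (Ssr2) to 0.50, whereas the 6 degradation genes had a median of 0.15 and a highest value of 0.24, in Selk and Derl2 alike, and Derl1 was at -0.10. Xbp1 had a rho of 0.24. Level and rho did not follow the same order: Edem1, with a median of 369.5 CPM, had a rho of 0.04, and Manf, with a median of 90.9 CPM, one of 0.56.

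**Figure D5:**
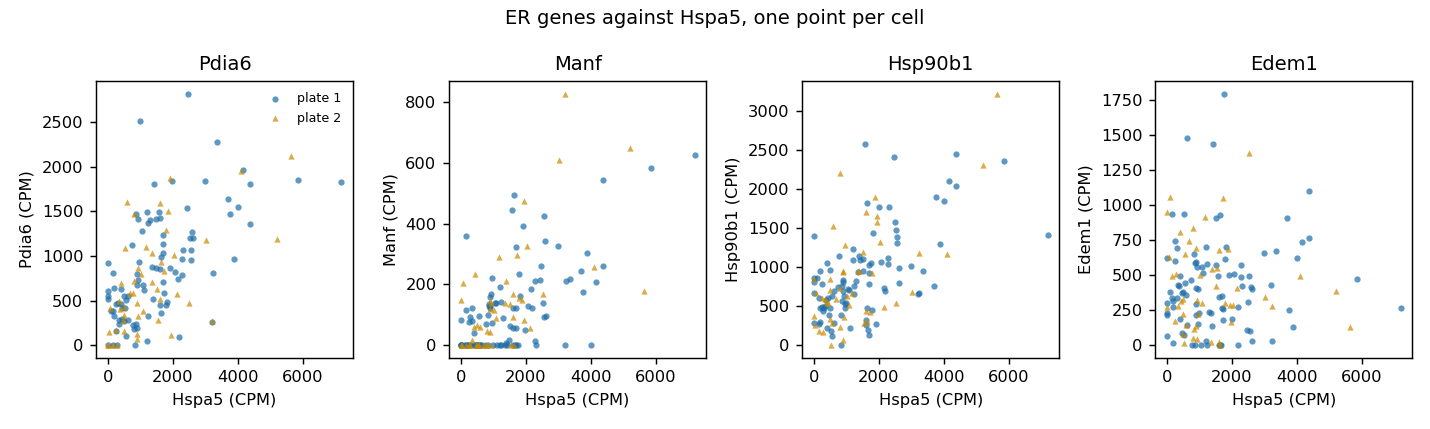
CPM of Pdia6, Manf, Hsp90b1 and Edem1 against CPM of Hspa5, 1 point per cell, circles for plate 1 and triangles for plate 2. The first 3 genes climb with Hspa5 (rho 0.60, 0.56 and 0.51), and Edem1 does not (rho 0.04).

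The same division appeared between pairs of members. The median rho was 0.42 over the 6 pairs of oxidoreductases, 0.31 over the 28 pairs of chaperone genes, 0.32 over the 32 pairs across these roles (Hspa5 included in both) and 0.22 over the 10 translocation pairs. Over the 15 pairs of degradation genes it was 0.005, with -0.13 as the lowest and 0.11 as the highest. Pairs of a member with any other gene had a median of 0.03. Sdf2l1 and P4hb formed one of the closest pairs apart from Hspa5, at 0.54, as did Pdia3 and Pdia6 at 0.58, Pdia6 and P4hb at 0.55 and Hsp90b1 and Pdia6 at 0.54. Members with and without an ERSE match had like rank correlations: the median rho with Hspa5 was 0.40 for the 6 genes with a match and 0.40 for the 13 without. The median log2 ratio in Hspa5-high cells was 1.101 for 7 genes with a match and 0.53 for 18 without.

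Outside the 36 genes, those most like Hspa5 in rank were Lpl at 0.52, Rpn1 at 0.48, Psmb6 at 0.47, Gm5506 at 0.46, Srm and Ccl9 at 0.45, and Tmed2, Pfn1, Set and Eno1 at 0.43 to 0.44. Rpn1 is a subunit of the enzyme that attaches glycans in the ER, Tmed2 a cargo receptor of transport to the Golgi, and Lpl a secreted lipase. Gm5506 is a near-identical copy of Eno1, so reads may be split between them. Lpl had a median of 3392 CPM in the Hspa5-high cells and 1485 in the others. At the opposite end, Apoe, a secreted lipid carrier named after its value was seen, had the lowest rho of the 2196 genes, -0.57 (-0.61 and -0.47 on the plates), and medians of 22037 and 33426 CPM. Apoe is an abundant gene here, with a median of 32508 CPM over all cells, and CPM are shares. With cells scaled by spike-ins instead, its rho was -0.23.

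By ratio in the Hspa5-high cells, the leading genes outside the list that were at least 2-fold higher on each plate were Rnf219, Golim4, Nicn1, Slc17a9, Ogfod2, Aen, 2610002I17Rik, Ccl2, Gpatch1 and Slc39a2. Their log2 ratios ran from 2.74 for Rnf219 to 2.22 for Slc39a2. Each was read in 3 to 11 of the 15 cells. Rnf219, Slc17a9 and 2610002I17Rik were at 7.44, 8.43 and 9.19 CPM in the other cells. They passed the filter on low values through the Hspa5-high cells. Ogfod2, Slc17a9 and 2610002I17Rik were each read in 11 of the other cells, a smaller share than the filter asks for. Ogfod2 thus also passed through the Hspa5-high cells, and the ratios of all these genes only describe those cells. All but Ccl2 and Slc39a2 had pooled levels under 20 CPM in the other cells. Ccl2, a chemokine, had 185 against 38.4 CPM, and Slc39a2, a zinc transporter, 506 against 108.2 CPM.

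Wider lists of the same pathways, drawn from textbook membership and without the 36 genes, had median log2 ratios in Hspa5-high cells from -0.15 to 0.73. Their counts stand beside the 8.07% of all genes at least 2-fold higher and the 16.2% at least 2-fold lower. The same holds for the heat shock, proteasome and immediate early genes below. Of 21 other ER folding genes tested, 3 were at least 2-fold higher and 1 lower, with a median log2 ratio of 0.03. The highest was Fkbp7, a prolyl isomerase, at 1.79 and past 2-fold on each plate, while the abundant isomerase Ppib had -0.09. Of 13 other oxidoreductases 3 were higher, with a median of 0.64: Creld1 at 2.14 and Txndc11 at 1.67, past 2-fold on each plate, and Qsox1 at 1.05. The more abundant Erp29 had 0.55 and Tmx1 0.70. Of 18 other degradation genes 0 passed 2-fold in either direction, with a median of 0.14, and the extraction ATPase Vcp had 0.88.

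Of 28 other translocation and glycosylation genes 3 were at least 2-fold higher, with a median of 0.29, and all 3 passed 2-fold on each plate. They were the channel homologue Sec61a2 (1.70), the signal recognition particle receptor Srpr (1.35) and Rpn1 (1.08), the last from 419 to 890.0 CPM. Of 22 targets of ATF4 and CHOP 5 were higher and 0 lower, with a median of 0.73 on the pooled scale but 0.81 on plate 1 and -0.06 on plate 2. They were Mthfd2, Asns, Mars, Atf3 and Cars, and Atf3 was the one past 2-fold on each plate (1.03 and 2.30). Mars, a transfer RNA synthetase, was at 1.85 on plate 1 and -5.20 on plate 2. Exons of Mars overlap those of Ddit3 on the opposite strand.

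Of 14 other sensors and partners 1 was higher (Eif2s1, the initiation factor that PERK phosphorylates, at 1.16) and 1 lower (Creb3l2, at a pooled 0 against 18.1 CPM), with a median of -0.15. Of 21 ER to Golgi transport genes 1 was higher (Sec24d at 1.12), with a median of 0.33, and the abundant cargo receptor Surf4 had 0.75. Of 10 cytosolic heat shock genes 1 was higher (Bag3, 1.09, past 2-fold on each plate) and 1 lower (Hsph1, -1.01), with a median of 0.36. Hspa8, the cytosolic counterpart of BiP, had a ratio of 0.16. Of 31 proteasome subunits 0 passed 2-fold, and their median was 0.17. Of 8 immediate early genes tested 1 was higher (Jun, 1.36) and 2 lower (Junb, -1.46, and Btg2, -5.33).

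For comparison with the cell cycle, 65 of the 143 cells were classed as cycling. Of the 32 members, 2 were at least 2-fold higher in cycling cells, Creld2 at 1.02 and Dnajb9 at 1.00 on the log2 scale, where 10.6% of all genes were, and 0 were at least 2-fold lower, where 4.14% were. The median was 0.11 over the members and 0.10 over all genes. Without a fold limit, 16 of the 32 were higher in cycling cells on each plate (35.5% of all genes) and 6 lower on each plate (23.8% of all genes). The number past 2-fold depended on the setting, with 6 on plate 1 alone, 5 under spike-in scaling and 11 with means of log2(CPM + 1). Both genes lay at the boundary, and Dnajb9 was at 1.69 on plate 1 and 0.07 on plate 2. With the cycling cells left out, the median log2 ratio of the members in Hspa5-high cells was 0.80 with 8 cells on the Hspa5-high side.

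Between plate 2 and plate 1, 0 of the 32 members passed 2-fold, where 2.47% of all genes were at least 2-fold higher and 6.38% lower on plate 2. The median log2 ratio was -0.16 over the members and -0.08 over all genes. The largest differences were those of Derl2 at -0.65 and Ero1l at -0.60, and Hspa5 had -0.26, with pooled levels of 1359.9 on plate 2 and 1631 CPM on plate 1.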

How the data were processed

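Per the labels' protocols, cerebella of pooled male mice were dissociated by douncing, myelin was removed with magnetic beads, and live cells were sorted singly into 96-well plates for Smart-seq2. The authors deposited raw read counts for each gene in each cell, and all 143 columns matched the totals in the labels. Per the submitters' processing notes, the tools included STAR 2.5.3a, Trim Galore 0.4.3, HTSeq and Picard, with the mm10 build. Annotation and strand setting are not given in the sources used here. The age label gives P7, which was used, although a library name in the labels reads adult. No cell was removed.

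CPM were computed from the deposited counts with the 92 spike-ins left out and Rn45s kept. Pooled ratios are log2 of pooled CPM + 1, over genes read in at least 10% of cells with a pooled CPM of 10 or more. Shares carry exact Clopper-Pearson 95% intervals. PCR reads without molecular identifiers are not independent molecules, so these cover counting error only. The pool hides any spread between animals. Cells counted as cycling with at least 6 of 24 S or 8 of 31 G2/M genes at a CPM of 10 or more. Exon lengths and overlaps come from GENCODE vM21 on GRCm38, and Ddit3, which has more than 1 gene entry there, was given no length. RefSeq promoter windows were matched by symbol for 30 of 36 genes. Python 3.11.15, numpy 2.4.6, pandas 2.3.3, scipy 1.17.1 and matplotlib 3.10.9 were used, and the scripts were tested on simulated data.

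The members, gene lists and settings were chosen with earlier results of these data known. The genes named are the 36, the leading genes of each wider list by pooled CPM and those past 2-fold on both plates, the 10 genes outside the members most like Hspa5 in rank and the 10 with the largest ratio in Hspa5-high cells on both plates. Other list genes past 2-fold, Apoe and the closest pairs were named after their values were seen. Alternatives varied the scaling, pseudocount, filter, depth, plate, window and cycling cells.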

Additional observations from a re-analysis of the deposited data

How the results depend on the processing

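No paired analysis was possible because the cells form 1 group from 1 pool of animals. Of 403 values, the log2 ratios of 31 members in Hspa5-high cells under 13 alternatives, 368 stayed on the same side of 2-fold, 33 crossed it, and 2 of a member past 2-fold changed sign, those of Atf6, -2.23 on plate 2 alone and -0.0277 with cycling cells left out. Another 9 sign changes fell on members under 2-fold: Ero1l (upper 20% of each plate, spike-in scaling), Derl1 (spike-in scaling, means of log2(CPM + 1), plate 1), Dnajb9 (plate 1), Edem1 (plate 2, cycling cells left out) and Dnajc3 (cycling cells left out). The count of members at least 2-fold higher in Hspa5-high cells was 19 with means of log2(CPM + 1) in place of pooled values. The median log2 ratio of the members was 1.08 under spike-in scaling, where the median of all genes shifted to 0.44, and 1.39 with means of log2(CPM + 1). It was 0.63 without the filter on low values, 0.74 after thinning, 0.63 on plate 1 alone and 0.80 with cycling cells left out. The Hspa5-high cells were chosen anew wherever an alternative changed the cells, counts or scaling. The median rank correlation with Hspa5 was 0.49 under spike-in scaling (0.18 for all genes), 0.39 on plate 1, 0.38 on plate 2, 0.38 with cycling cells left out and 0.38 after thinning. The excess variability of Hspa5 was 1.73 on plate 2, 1.71 with a narrower window and 2.24 from the variance of log2(CPM + 1), and the members' share of counts 1.43% with Rn45s left out. Members past 2-fold between plates numbered 2 with means of log2(CPM + 1) and 2 without the filter. In cycling cells they numbered 5 under spike-in scaling, 11 with means of log2(CPM + 1), 0 with a pseudocount of 10, 4 without the filter, 1 with Rn45s left out and 6 on plate 1. The median there was 0.54 under spike-in scaling (0.52 for all genes) and 0.48 with means of log2(CPM + 1) (0.44 for all genes). The cause of these shifts was not tested. Leaving out the 4 cells under 500000 gene counts, an alternative added after the data were seen, gave 11 members read in 90% of cells or more, 12 members at least 2-fold higher, a median log2 ratio of 0.70 and a median rank correlation of 0.40.

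With 15 Hspa5-high cells, shares of genes read in few cells have intervals too wide to compare, and reads of the same molecule make the depth of a single cell smaller than its counts. RNA levels do not show Xbp1 splicing, translation or protein folding load.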
